A study of Mus musculus with 12 samples.

Results

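The genes described here are 10 members of the antioxidant and metal-buffering response: the metallothioneins Mt1 and Mt2, heme oxygenase 1 (Hmox1), the quinone reductase Nqo1, both subunits of glutamate-cysteine ligase (Gclc and Gclm), thioredoxin reductase 1 (Txnrd1), mitochondrial superoxide dismutase (Sod2), catalase (Cat) and glutathione peroxidase 1 (Gpx1). They were chosen by name, and all 10 were found among the 53465 genes of the expression table. RNA-seq had been performed on LSKs (Lin- Sca-1+ c-Kit+ cells, the bone marrow fraction that holds hematopoietic stem and multipotent progenitor cells) from Tespa1+/+ and Tespa1-/- mice, with 3 libraries in each of 4 groups. LSKs came either from untreated mice or from mice given 5-FU (fluorouracil, an antimetabolite that kills cycling cells) in 1 intraperitoneal dose of 150 mg/kg and killed on day 9. Per the study's methods the mice were males of 8 to 10 weeks, and the Tespa1-/- line had been backcrossed to C57BL/6 for more than 6 generations. Tespa1+/+ mice, littermates per the labels, were the controls. The Tespa1 deletion was carried by every cell of these mice, host tissues included. Mature cells were removed with a lineage depletion kit before the sort, and Lin- was defined with antibodies to CD3e, CD11b, Gr-1, B220 and Ter-119. The labels do not say whether each library came from a separate mouse or a pool, so p-values measure the spread between these libraries.

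Metallothioneins are small cysteine-rich proteins that bind zinc and copper, and their genes are switched on by the zinc-sensing factor MTF1 and by several stress signals. Most of the other genes are known targets of NRF2 (encoded by Nfe2l2), a transcription factor that KEAP1 marks for degradation until oxidants or electrophiles release it, while BACH1 occupies the same sites and holds Hmox1 down. Superoxide dismutase turns superoxide into hydrogen peroxide, which catalase and the glutathione and thioredoxin systems remove. In the stem cell field, low levels of reactive oxygen species are associated with quiescence.

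Libraries held 22118154 to 28275079 counts, and 3 counts, taken as the detection limit, equalled 0.106 to 0.136 CPM, where CPM scales the counts of each library to a common total. That limit covers counting error only. Levels below are CPM scaled with TMM, given as mean ± SD over the 3 libraries of a group. Tespa1 itself stood at 46.5 ± 3.41 CPM in untreated Tespa1+/+ LSKs, 34.8 ± 0.235 in untreated Tespa1-/-, 53.2 ± 5.37 in treated Tespa1+/+ and 19.3 ± 1.82 in treated Tespa1-/-. Every Tespa1-/- library was below every Tespa1+/+ library of the same treatment, with a log2 difference of -0.42 untreated (adjusted p = 0.0316 with edgeR, called in 1 of 6 fits that left out a library) and -1.47 after 5-FU (adjusted p = 9.38e-05 with edgeR). Counts over a whole gene cannot be assigned to deleted or retained exons. All 10 LSK and stem cell markers were detected in the 4 groups. Kit, the receptor used in the sort, was between 342 and 467 CPM by group mean, and Ly6a, which encodes Sca-1, between 15.3 and 36.0 CPM.

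The 3 libraries of Tespa1-/- LSKs after 5-FU stood apart from the other libraries in their markers of other cells. Their 12 neutrophil markers summed to 1051 to 1057 CPM, against 2.54 to 2.67 in untreated Tespa1+/+, 6.93 to 8.03 in untreated Tespa1-/- and 9.13 to 13.3 in treated Tespa1+/+. In Tespa1-/- LSKs after 5-FU S100a9, the most abundant of them, reached 316 CPM and none was at 0. Among the defining markers, Cd177 was at 0 in the other 3 groups, Ly6g in both untreated groups, Ltf and Camp in untreated Tespa1+/+, and Retnlg in untreated Tespa1-/- and treated Tespa1+/+. Of the 12, 10 were called higher than in Tespa1+/+ after 5-FU. The 12 erythroid markers summed to 910 to 954 CPM there, against 159 to 183, 197 to 213 and 285 to 314 CPM in the same order, with Car2 as the most abundant (313 CPM), none at 0, and 12 of 12 called higher than in Tespa1+/+ after 5-FU. The 6 markers of granule-stage myeloid progenitors, led by Mpo, summed to 4633 to 4925 CPM in Tespa1-/- LSKs after 5-FU and to 2498 to 3655 CPM elsewhere, with Fcnb at 0 in treated Tespa1+/+. The 10 LSK markers summed to 793 to 861 CPM there against 1316 to 1675 CPM elsewhere, and 8 of 10 were called lower than in Tespa1+/+ after 5-FU. Monocyte and macrophage markers summed to 264 to 280.2 CPM in treated Tespa1-/-, led by Ccr2, and to 179 to 244 CPM elsewhere, with Marco at 0 in both Tespa1+/+ groups. Megakaryocyte markers, led by Itga2b, summed to 254 to 268 CPM there, against 44.7 to 51.5 in untreated Tespa1+/+, 75.8 to 81.3 in untreated Tespa1-/- and 175 to 196 CPM in treated Tespa1+/+, with Ppbp at 0 in untreated Tespa1+/+ and Gp6 in that group and in Tespa1-/- after 5-FU. Mast cell and basophil markers, led by Gata2, summed to 212 to 282 CPM there, against 82.2 to 93.7, 98.5 to 123 and 174 to 207 CPM in the same order, with Fcer1a, Cma1 and Tpsb2 at 0 in both untreated groups. B lymphoid markers were high after 5-FU in both genotypes, at 402 to 417 CPM in Tespa1+/+ and 471 to 479 CPM in Tespa1-/-, against 54.2 to 92.5 CPM untreated. T and NK markers (18.5 to 38.2 CPM, led by Il7r) and stromal and endothelial markers (104 to 138 CPM, led by Pecam1) spanned these ranges over the 4 groups, with Cd3e at 0 in untreated Tespa1-/- and treated Tespa1+/+, and Cd3g, Trac and Ncr1 in untreated Tespa1+/+. Markers also moved with 5-FU in Tespa1+/+, where 4 of 6 tested megakaryocyte, 5 of 7 mast cell and basophil, 6 of 10 erythroid and 8 of 8 B lymphoid markers were called higher, against 3.77% of all genes tested. Also higher were 4 of 5 granule-stage and 2 of 6 neutrophil markers. The LSK sum fell there from 1601 to 1675 CPM untreated to 1316 to 1371 CPM, with Cd34 and Flt3 called lower and Mecom and Slamf1 higher. Between the genotypes after 5-FU, the T and NK sums overlapped (26.1 to 32.8 CPM in Tespa1+/+ and 25.5 to 38.2 CPM in Tespa1-/-) and the sums of the other 9 lists did not. In untreated LSKs, too, the neutrophil, granule-stage, erythroid, megakaryocyte and mast cell sums were higher in Tespa1-/- without overlap. The LSK sum (1337 to 1371 against 1601 to 1675 CPM) and the B lymphoid sum (54.2 to 60.9 against 80.1 to 92.5 CPM) were lower there without overlap. The part of these sums in the results below was not tested in any comparison. In bulk samples, more cells of a type and more RNA per cell cannot be told apart.

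**Figure D1:**
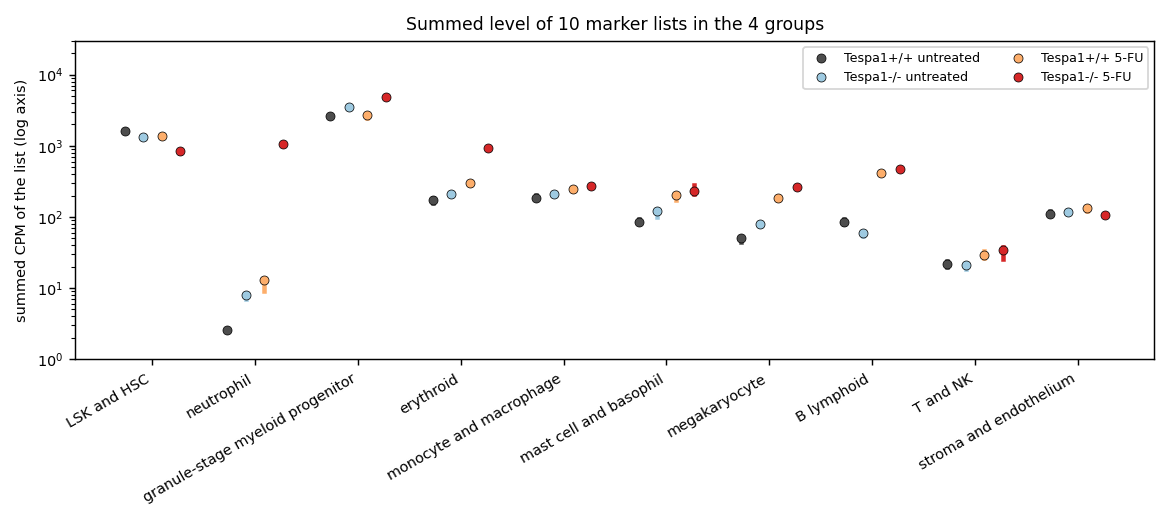
Summed CPM (y axis, log scale) of 10 lists of cell type markers (x axis) in the 4 groups, with the point at the median and the bar from the lowest to the highest of 3 libraries. Neutrophil markers lie at 1051 to 1057 CPM in Tespa1-/- LSKs after 5-FU and at most at 13.3 CPM in the other groups.

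Genes of 4 lists that are not cell type markers were also summed. The 8 proliferation genes, led by Mki67, summed to 3433 to 3484 CPM in Tespa1-/- LSKs after 5-FU and to 2360 to 2477 CPM elsewhere, and 8 of 8 were higher than in Tespa1+/+ after 5-FU at an adjusted p below 0.05. The 12 immediate-early genes, led by Jun, were highest in untreated Tespa1+/+ (10321 to 10884 CPM), lower in untreated Tespa1-/- (7170 to 7295 CPM) and Tespa1+/+ after 5-FU (7008 to 7052 CPM), and lowest in Tespa1-/- after 5-FU (5498 to 5690 CPM). Heat shock genes, led by Hspa8, fell with 5-FU in both genotypes (from 2760 to 3008 CPM untreated to 2012 to 2255 CPM treated), with 5 called lower in each. The 8 glucocorticoid-responsive genes, led by Per1, summed to 391 to 476 CPM after 5-FU and to 531 to 637 CPM untreated, and after 5-FU the genotypes overlapped with 0 of 8 called by edgeR.

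With 5-FU in Tespa1+/+ LSKs, Mt1 rose and was the only member of the 10 called, where a gene is called at a Benjamini-Hochberg adjusted p below 0.05 over all genes tested by edgeR's quasi-likelihood test. Across all 17002 genes, 3.77% were called higher and 4.18% lower. At an unadjusted p under 0.05, 3 of the 10 were higher, and DESeq2 called 2 higher, Mt1 and Gclm. None of the 10 was called lower, although 2 had an unadjusted p under 0.05 in that direction and DESeq2 called 1, Txnrd1. The median log2 fold change of the 10 was -0.00283 and that of all genes 0.0135.

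In Tespa1-/- LSKs, 5-FU raised 7 of the 10 genes, namely both metallothioneins, Hmox1, both glutamate-cysteine ligase subunits, Gpx1 and Cat, and lowered Txnrd1. Of all 17228 genes tested, 10.7% were called higher and 8.64% lower. The median of the 10 was 0.58 on the log2 scale, with 9 above 0, against a median of -0.01 over all genes. Nqo1 and Sod2 did not pass the test.

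Untreated LSKs of both genotypes gave no called difference in any of the 10 genes, higher or lower, with edgeR or with DESeq2. Of 17055 genes, 1.64% were called higher and 3.59% lower in Tespa1-/-. At an unadjusted p under 0.05, none of the 10 was higher and 3 were lower, which were Sod2 (log2 fold change -0.25 ± 0.0868 SE), Cat (-0.19 ± 0.0794) and Txnrd1 (-0.16 ± 0.0672). Their adjusted p from edgeR were 0.161, 0.238 and 0.239.

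After 5-FU, Mt1, Mt2, Hmox1 and Gpx1 were higher in Tespa1-/- than in Tespa1+/+ LSKs, and none of the 10 was lower, also at an unadjusted p under 0.05 and with DESeq2. The background over 17239 genes was 7.34% higher and 5.78% lower. The median of the 10 was 0.25 on the log2 scale and that of all genes -0.01. A direct test of whether the 5-FU response differed between the genotypes, as the interaction over 12 libraries, called Mt1, Mt2 and Gpx1 higher in Tespa1-/- and none lower, where 3.02% of 18696 genes were called higher and 1.99% lower. No member was lower at an unadjusted p under 0.05 or with DESeq2 there. The median of the 10 was 0.36 on the log2 scale and that of all genes -0.02. These comparisons share libraries, so that the Tespa1-/- 5-FU group enters 3 of them.

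**Figure D2:**
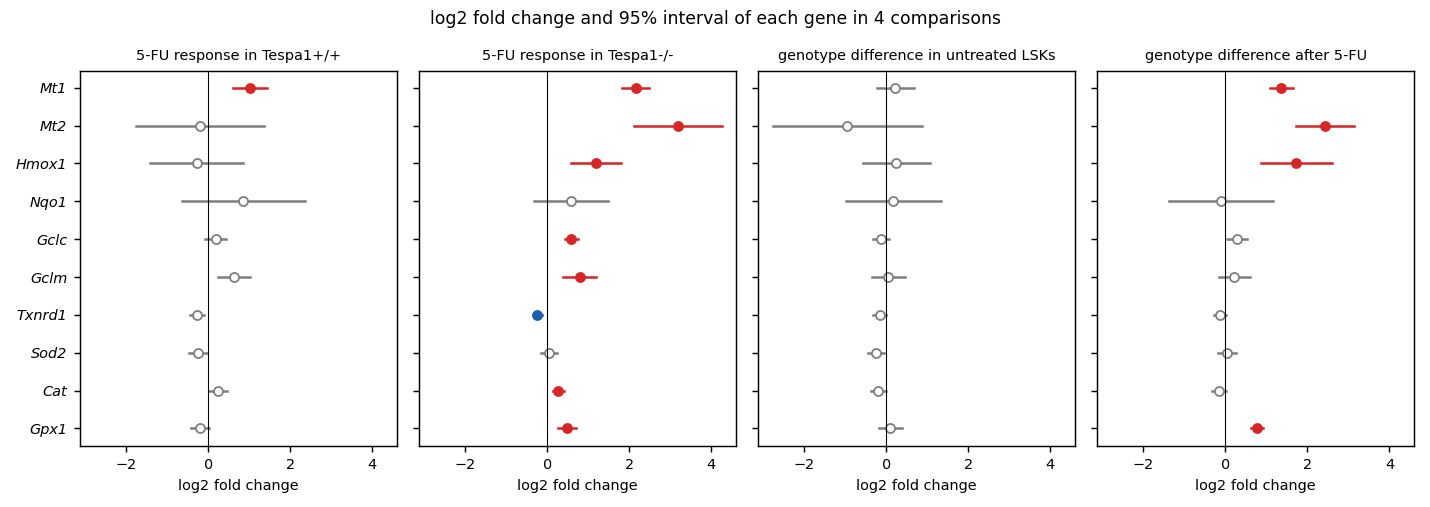
log2 fold change (x axis) of the 10 genes (y axis) in 4 comparisons, with approximate 95% intervals derived from edgeR's quasi-likelihood test. Filled red points were called higher, filled blue points lower, and open grey points not called. The intervals of Mt2, Hmox1 and Nqo1 are the widest.

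Mt1 rose with 5-FU in both genotypes and reached its highest level in Tespa1-/-. It lies on chromosome 8 (GRCm38, chr8:94179082-94180327, plus strand), 5514 bp beyond the end of Mt2. Its level was 7.92, 6.22 and 7.11 CPM in replicates 1, 2 and 3 of untreated Tespa1+/+ and 9.70, 8.07 and 6.98 CPM in untreated Tespa1-/-. At day 9 after 5-FU it was 15.2, 13.4 and 14.6 CPM in Tespa1+/+ and 35.3, 39.9 and 36.5 CPM in Tespa1-/-. The untreated genotypes overlapped, while each treated group lay above both of them and the treated groups did not overlap. 5-FU raised Mt1 by 2.03-fold in Tespa1+/+ (log2 fold change 1.02 ± 0.188 SE, adjusted p = 0.0107 with edgeR) and by 4.47-fold in Tespa1-/- (2.16 ± 0.145, adjusted p = 2.11e-05 with edgeR). After 5-FU, Mt1 was 2.58-fold higher in Tespa1-/- (1.37 ± 0.124, adjusted p = 0.000141 with edgeR), and the interaction was 1.15 ± 0.215 (adjusted p = 0.00721 with edgeR). Each of these 4 calls held when any library was left out.

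Mt2, the neighbouring metallothionein (chr8:94172664-94173568, plus strand), had fewer counts than Mt1 and was more variable. Untreated Tespa1+/+ libraries held 24, 13 and 74 counts (0.856, 0.578 and 3.35 CPM), and untreated Tespa1-/- libraries 16, 7 and 33 counts (0.702, 0.311 and 1.44 CPM). After 5-FU the Tespa1+/+ libraries held 29, 39 and 37 counts (1.13, 1.5 and 1.53 CPM) and the Tespa1-/- libraries 266, 142 and 164 counts (9.73, 5.50 and 7.41 CPM). The lowest Tespa1-/- library after 5-FU was thus above the highest of any other group, and the remaining 3 groups overlapped. Mt2 rose 9.09-fold with 5-FU in Tespa1-/- (log2 fold change 3.18 ± 0.472 SE, adjusted p = 0.00189 with edgeR), and this change was 2.80 to 3.87 with a library left out, the highest without Tespa1-/- untreated replicate 3. In Tespa1+/+ it was -0.19 ± 0.691 (95% interval -1.75 to 1.36, adjusted p = 0.912 with edgeR), and it turned to 0.94 without Tespa1+/+ untreated replicate 3 and to 0.19 with the replicate number as a block. It was 5.41-fold higher in Tespa1-/- than Tespa1+/+ after 5-FU (2.44 ± 0.315, adjusted p = 0.00103 with edgeR). The interaction of 3.39 ± 0.870 had an adjusted p of 0.0414 with edgeR and was called in 3 of 12 fits that left out a library (without Tespa1+/+ untreated replicate 1 or 2, or Tespa1-/- untreated replicate 3), the others giving 0.0613 to 0.101. Without Tespa1+/+ untreated replicate 3, the library with 74 counts, it was 2.26, and without Tespa1-/- untreated replicate 3 it was 4.07.

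The counts of the metallothioneins were not shared with each other, since no stretch of 50 bases of Mt1 transcripts occurs in another gene's transcripts. Of the 50-base stretches of Mt2, 45.8% lie in Gm45774, an antisense gene that overlaps 432 of its exonic bases. Gm45774 held 0 to 14 counts per library, with 2 to 5 in Tespa1-/- LSKs after 5-FU. Whether the counting used strand is not given in the sources used here. The relatives Mt3 and Mt4 were barely or not detected. Mt4 had 0 counts in every library, which allows at most 0.106 to 0.136 CPM, and Mt3 had 0 counts in the 9 libraries outside Tespa1-/- after 5-FU and 0 to 9 counts there.

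The start regions of both metallothioneins are printed because these genes are read together here, with the matches to the core of the metal response element, where MTF1 binds (TGCACNC or TGCGCNC on either strand), and to the core of the antioxidant response element, where NRF2 binds (TGACNNNGC on either strand), in capitals. They are RefSeq sequences (GRCm38.p6, plus strand, 5′ to 3′) from 250 bases before to 50 bases after the start, at chr8:94178839-94179138 and chr8:94172368-94172667. Windows were matched by symbol for 8 of the 10 genes, without Gclc and Hmox1.
Mt1: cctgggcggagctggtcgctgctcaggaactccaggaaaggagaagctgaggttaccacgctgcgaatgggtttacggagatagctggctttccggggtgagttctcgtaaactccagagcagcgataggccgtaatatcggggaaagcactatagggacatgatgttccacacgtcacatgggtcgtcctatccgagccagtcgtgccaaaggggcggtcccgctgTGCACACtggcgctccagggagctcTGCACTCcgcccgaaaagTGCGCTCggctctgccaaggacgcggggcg
Mt2: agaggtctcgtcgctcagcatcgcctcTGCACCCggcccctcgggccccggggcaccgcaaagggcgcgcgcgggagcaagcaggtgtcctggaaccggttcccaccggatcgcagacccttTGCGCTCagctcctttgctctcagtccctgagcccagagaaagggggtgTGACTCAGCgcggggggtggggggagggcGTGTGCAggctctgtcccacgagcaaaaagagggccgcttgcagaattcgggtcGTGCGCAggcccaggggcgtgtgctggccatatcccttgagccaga
The Mt1 window held 3 matches to the metal response core and none to the antioxidant response core, and the Mt2 window held 4 and 1. Among 32817 windows of this kind, 25.7% held at least 1 match to the metal response core, 1.97% at least 3 and 0.518% at least 4, and 12.4% held the antioxidant response core. Gclm, with 3 and 1 matches, was the only other member with both, an antioxidant response core stood in 1 of 3 Txnrd1 windows, and none of either was found in the windows of Nqo1, Sod2, Cat and Gpx1. Such matches are letters in a window set by 1 annotated start. Sequence outside the windows was not searched, so a count of none holds for the window only, and binding was not measured.

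**Figure D3:**
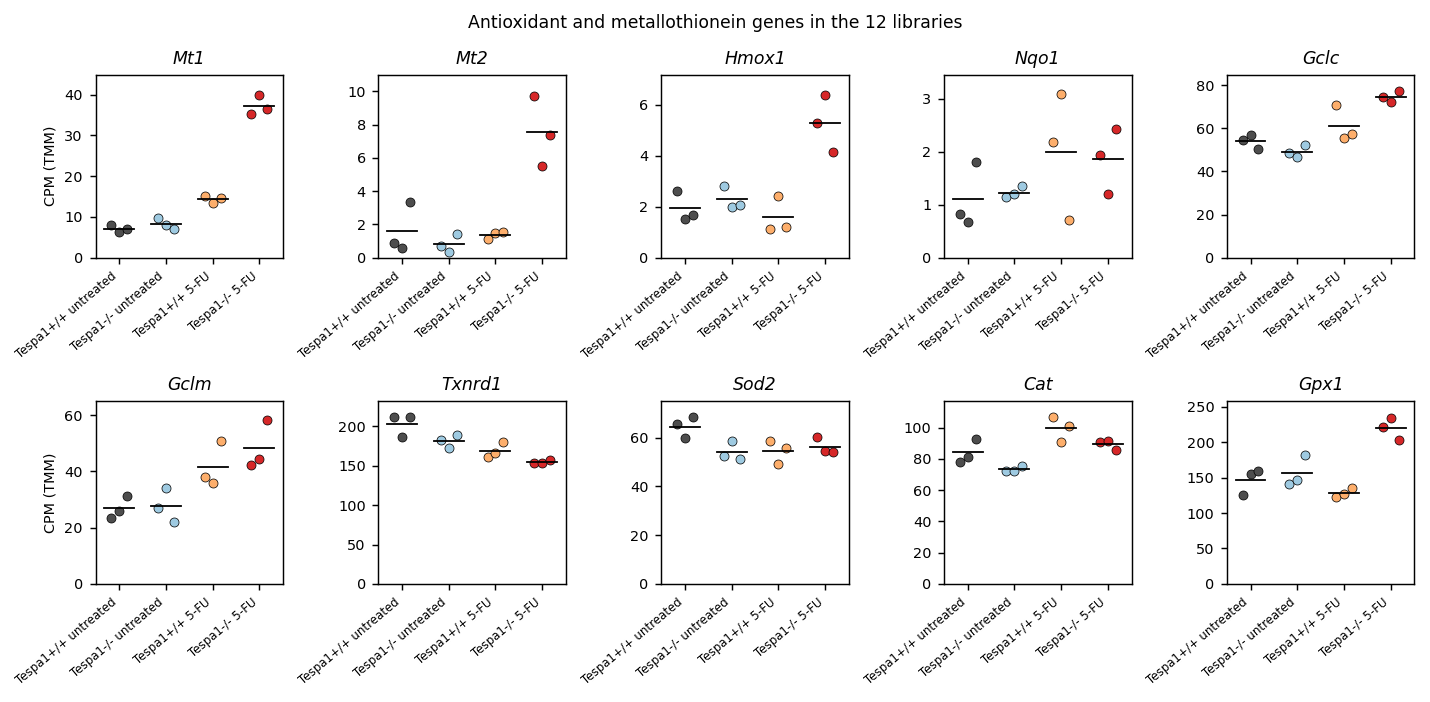
CPM (y axis, from 0) of each of the 10 genes in the 12 libraries (points), grouped by genotype and treatment (x axis), with the group mean as a line. Mt1, Mt2, Hmox1, Gclc and Gpx1 have all 3 libraries of Tespa1-/- LSKs after 5-FU above every other library. The share of all genes with this pattern is not given here.

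Hmox1, which opens the heme ring to give biliverdin, iron and carbon monoxide (chr8:75093621-75100589), was expressed at a low level. It stood at 2.60, 1.51 and 1.68 CPM in untreated Tespa1+/+, 2.81, 2.0 and 2.05 CPM in untreated Tespa1-/-, 1.13, 2.43 and 1.20 CPM in treated Tespa1+/+ and 5.30, 6.39 and 4.15 CPM in treated Tespa1-/-. The last group lay above the other 9 libraries, which overlapped. Hmox1 rose 2.29-fold with 5-FU in Tespa1-/- (log2 fold change 1.20 ± 0.268 SE, adjusted p = 0.014 with edgeR) and was 3.31-fold higher than in Tespa1+/+ after 5-FU (1.73 ± 0.383, adjusted p = 0.0169 with edgeR). In Tespa1+/+ the 5-FU response was -0.28 ± 0.499 (adjusted p = 0.804 with edgeR). The difference between these responses, 1.49 ± 0.516 on the log2 scale with a 95% interval of 0.38 to 2.61, was not called (adjusted p = 0.126 with edgeR). Hmox1 had 29 to 165 counts per library. The 5-FU call was lost without Tespa1-/- untreated replicate 2 (adjusted p = 0.0623 with edgeR) or replicate 3 (0.0563), and the genotype call after 5-FU without Tespa1+/+ 5-FU replicate 1 (0.0531) or 3 (0.0594) or Tespa1-/- 5-FU replicate 1 (0.0539) or 2 (0.0697). The log2 fold changes in these fits were 1.11 to 1.12 and 1.54 to 1.73.

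Nqo1, which reduces quinones with NADH or NADPH (chr8:107388225-107403206, minus strand), was the least abundant of the 10 per kb in 3 of the 4 groups and gave no called difference. Its counts ran from 15 to 40 in untreated Tespa1+/+, 26 to 31 in untreated Tespa1-/-, 17 to 80 in treated Tespa1+/+ and 31 to 54 in treated Tespa1-/-. The groups overlapped in each of the 4 comparisons. The 95% interval of the genotype difference after 5-FU, -1.38 to 1.17 on the log2 scale, holds changes larger than 2-fold in either direction, so that a change of that size is not excluded.

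Both subunits of glutamate-cysteine ligase, which makes the precursor of glutathione, rose with 5-FU in Tespa1-/- LSKs. The catalytic subunit Gclc (chr9:77754535-77794485) was at 54.6, 56.8 and 50.5 CPM in untreated Tespa1+/+, 48.5, 46.9 and 52.3 CPM in untreated Tespa1-/-, 71.0, 55.5 and 57.5 CPM in treated Tespa1+/+ and 74.7, 72.1 and 77.2 CPM in treated Tespa1-/-. The treated Tespa1-/- libraries were above all others, and Tespa1+/+ 5-FU replicate 1 came near them. Its rise in Tespa1-/- was 1.5-fold (log2 fold change 0.59 ± 0.0715 SE, adjusted p = 0.00066 with edgeR), against 0.19 ± 0.114 in Tespa1+/+ (adjusted p = 0.403 with edgeR). The genotype difference after 5-FU, 0.28 ± 0.104, was not called (adjusted p = 0.118 with edgeR), nor was the interaction of 0.41 ± 0.135 (0.106). Without Tespa1+/+ 5-FU replicate 1, both were called, at 0.40 (adjusted p = 0.0235 with edgeR) and 0.52 (0.0265).

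The modifier subunit Gclm (chr3:122245557-122270732) had its highest levels after 5-FU in both genotypes. It was at 23.3, 26.1 and 31.3 CPM in untreated Tespa1+/+, 27.0, 34.0 and 22.1 CPM in untreated Tespa1-/-, 37.9, 35.8 and 50.9 CPM in treated Tespa1+/+ and 42.2, 44.3 and 58.4 CPM in treated Tespa1-/-. Treated and untreated libraries did not overlap in either genotype, whereas the genotypes overlapped under both treatments. The 5-FU response was 1.73-fold in Tespa1-/- (log2 fold change 0.79 ± 0.176 SE, adjusted p = 0.0138 with edgeR) and 1.55-fold in Tespa1+/+, just short of the threshold (0.63 ± 0.168, adjusted p = 0.0526 with edgeR). The Tespa1-/- call was lost without untreated replicate 1 (adjusted p = 0.0528 with edgeR). Their difference of 0.17 had a 95% interval of -0.40 to 0.74. Gm17494 and Gm6061 overlap 296 and 244 exonic bases of Gclm, and 4.58% of its 50-base stretches occur in other genes.

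Txnrd1, the cytosolic reductase that keeps thioredoxin reduced (chr10:82833951-82897712), was the gene of the 10 that fell. Its mean was 203.5 ± 14.8 CPM in untreated Tespa1+/+, 181 ± 8.44 in untreated Tespa1-/-, 169 ± 9.95 in treated Tespa1+/+ and 155 ± 2.46 in treated Tespa1-/-. 5-FU lowered it in Tespa1-/- (log2 fold change -0.24 ± 0.0522 SE, adjusted p = 0.0124 with edgeR), and the value in Tespa1+/+, -0.27 ± 0.0741, was not called (adjusted p = 0.0607 with edgeR). Treated and untreated libraries did not overlap in either genotype. The interaction was 0.04 (95% interval -0.16 to 0.24). The Tespa1-/- call was lost without untreated replicate 1 (adjusted p = 0.0516 with edgeR) or 3 (0.0532), and the Tespa1+/+ value was called without untreated replicate 2 (adjusted p = 0.0454 with edgeR).

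Of Gpx1, Cat and Sod2, only Gpx1 was called between the genotypes after 5-FU. Gpx1, a selenium-containing peroxidase that uses glutathione (chr9:108338903-108340343), was at 126, 155 and 159 CPM in untreated Tespa1+/+, 142, 146 and 182 CPM in untreated Tespa1-/-, 123, 127 and 135 CPM in treated Tespa1+/+ and 221, 234 and 204 CPM in treated Tespa1-/-. The treated Tespa1-/- libraries exceeded the other 9, and treated and untreated Tespa1+/+ libraries overlapped. The 5-FU response was 1.39-fold in Tespa1-/- (log2 fold change 0.47 ± 0.0969 SE, adjusted p = 0.00928 with edgeR) and -0.19 ± 0.0950 on the log2 scale in Tespa1+/+ (adjusted p = 0.289 with edgeR). After 5-FU it was 1.71-fold higher in Tespa1-/- (0.77 ± 0.0684, adjusted p = 0.000124 with edgeR). The interaction, 0.68 ± 0.148 (adjusted p = 0.0183 with edgeR), was called in 8 of 12 fits that left out a library. It was lost without Tespa1+/+ 5-FU replicate 1 (adjusted p = 0.053 with edgeR), Tespa1-/- untreated replicate 1 (0.0519) or 2 (0.0567), or Tespa1-/- 5-FU replicate 2 (0.0581).

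Catalase, the peroxisomal enzyme that splits hydrogen peroxide (Cat, chr2:103453849-103485160, minus strand), showed a small rise with 5-FU. It was at 84.1 ± 7.68 CPM in untreated Tespa1+/+, 73.3 ± 1.65 in untreated Tespa1-/-, 99.7 ± 7.97 in treated Tespa1+/+ and 89.4 ± 3.19 in treated Tespa1-/-. The rise was called in Tespa1-/- (log2 fold change 0.27 ± 0.0589 SE, adjusted p = 0.0117 with edgeR) but not in Tespa1+/+ (0.25 ± 0.0953, adjusted p = 0.168 with edgeR), and the interaction was 0.04 (95% interval -0.20 to 0.28). It was lost in Tespa1-/- without untreated replicate 1 (adjusted p = 0.0516 with edgeR) or 2 (0.0536). Sod2 (chr17:13007839-13018119), the manganese superoxide dismutase of mitochondria, was called in none of the comparisons with edgeR or DESeq2. Its mean was 64.5 ± 4.48 CPM in untreated Tespa1+/+ and 54.1 ± 4.02, 54.3 ± 4.82 and 56.3 ± 3.52 CPM in untreated Tespa1-/-, treated Tespa1+/+ and treated Tespa1-/-. At an unadjusted p under 0.05 it was lower in untreated Tespa1-/- and in Tespa1+/+ after 5-FU than in untreated Tespa1+/+, and its libraries did not overlap in either comparison, and the interaction (0.30, adjusted p = 0.223 with edgeR) also had an unadjusted p under 0.05. Of the 50-base stretches of Sod2, 21.0% occur in other genes.

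To compare levels between genes, CPM were divided by the length of the merged exons. In CPM per kb, untreated Tespa1+/+ LSKs had Gpx1 in front (102 ± 12.7), then Cat (32.2 ± 2.94) and Txnrd1 (28.7 ± 2.08), which overlapped, Gclc (14.3 ± 0.860), Sod2 (6.45 ± 0.448) and Mt1 (5.69 ± 0.682), which overlapped, and Gclm (4.27 ± 0.639). With the gene lengths behind the deposited FPKM instead, an alternative added after the data were seen, Sod2 was at 16.9 ± 1.17, above Gclc (13.7 ± 0.820). By those lengths Gclm (3.25 ± 0.485) stood above Mt1 (3.13 ± 0.375), with overlapping libraries. The deposited lengths of Mt1 and Gpx1 are longer than the whole annotated genes, so their levels by that length are low. At the end by either length came Mt2 (2.71 ± 2.60 with merged exons), Hmox1 (1.10 ± 0.337) and Nqo1 (0.708 ± 0.400), each overlapping the gene before it. In Tespa1-/- LSKs after 5-FU, Gpx1 (152 ± 10.5) was again in front and Cat next (34.2 ± 1.22). With merged exons Mt1 came next (29.9 ± 1.91 CPM per kb), above Txnrd1 (21.9 ± 0.347), whereas it lay below Txnrd1 in the other 3 groups, and Mt2 (12.8 ± 3.60) stood above Gclm (7.68 ± 1.41) and Sod2 (5.62 ± 0.351). With the deposited lengths Mt1 (16.4 ± 1.05) was still above Txnrd1 (13.8 ± 0.219) but below Gclc (18.9 ± 0.639), and Sod2 (14.7 ± 0.919) was above Mt2 (9.06 ± 2.54).

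The other genes of these pathways were examined through 9 lists with 82 genes. The lists were chosen with results of these data known. Of the genes tested, 6 of 77 were called higher and 5 lower with 5-FU in Tespa1+/+, 26 and 12 of 76 with 5-FU in Tespa1-/-, 3 and 7 of 78 in untreated Tespa1-/- against Tespa1+/+, and 14 and 4 of 77 in that contrast after 5-FU. The interaction called 8 higher and 4 lower of 79. Their median log2 fold change was 0.03, 0.13, 0.02, 0.05 and 0.11 in that order, against 0.01, -0.01, 0.01, -0.01 and -0.02 over all genes. The background percentages given above apply to these counts.

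**Figure D4:**
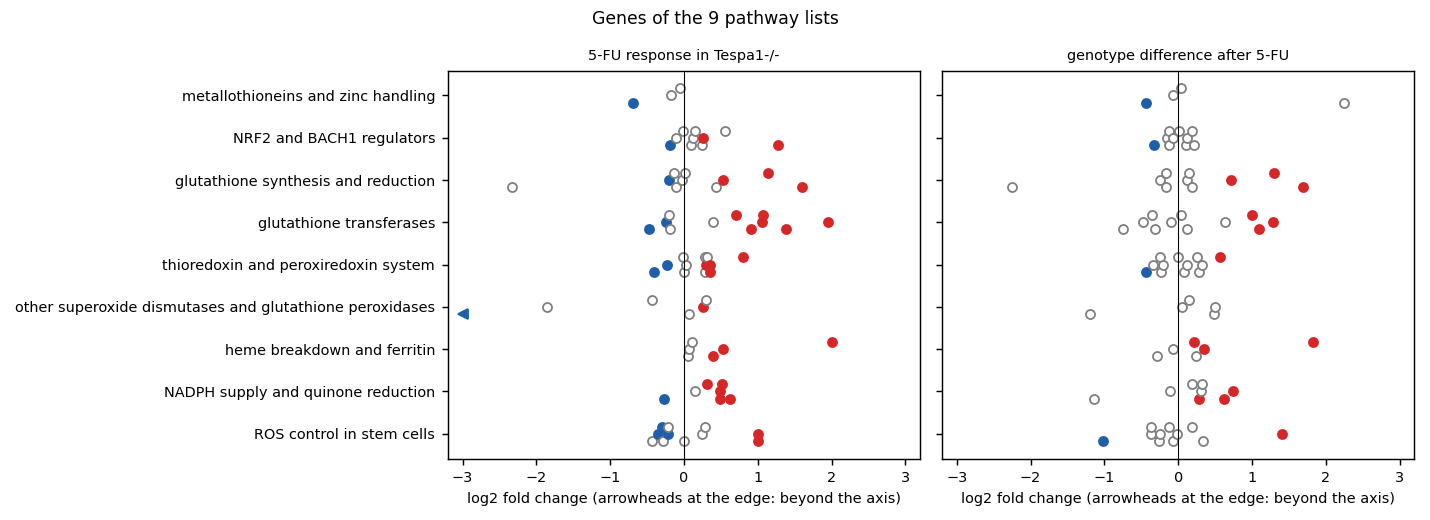
log2 fold change (x axis) of the tested genes of 9 pathway lists (y axis), for the 5-FU response in Tespa1-/- LSKs and for the genotype difference after 5-FU. Filled red points were called higher, filled blue points lower and open grey points not called, and the arrowhead is Sod3, which had 0 counts in the 3 libraries of Tespa1-/- LSKs after 5-FU.

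Among the regulators, Nfe2l2, which encodes NRF2, stood at 69.8, 61.7, 64.3 and 61.6 CPM by group mean, in the order untreated Tespa1+/+, untreated Tespa1-/-, treated Tespa1+/+ and treated Tespa1-/-, and was called in no comparison, like Keap1 (49.5, 54.9, 55.9 and 60.3 CPM) and the zinc sensor Mtf1 (23.4, 29.0, 27.2 and 26.0 CPM). Bach1 was lower in untreated Tespa1-/- than in untreated Tespa1+/+ (63.1 against 89.6 CPM, log2 fold change -0.50, adjusted p = 0.00721 with edgeR) and was not called elsewhere. In that comparison 4 of the 10 regulators were lower, led by the small MAF protein gene Maff (-1.33 ± 0.277), and 12 of 12 immediate-early genes were also lower. Sqstm1, whose product p62 binds KEAP1, was at 155, 106, 110 and 128 CPM in the same order of groups. It was among the regulators lower in untreated Tespa1-/- and was not called between the genotypes after 5-FU. Sqstm1 fell with 5-FU in Tespa1+/+ (-0.49 ± 0.0959) and rose in Tespa1-/- (0.26, adjusted p = 0.0264 with edgeR), with an interaction of 0.76 ± 0.125 (adjusted p = 0.00308 with edgeR). Of the 10 regulators, 2 rose and 1 fell with 5-FU in Tespa1-/-, the largest being Bach2, a repressor known from lymphocytes (1.27 ± 0.167), and Cul3, the ubiquitin ligase scaffold that works with KEAP1 (-0.19 ± 0.0543). In Tespa1+/+, 2 fell and none rose, and after 5-FU 1 was lower in Tespa1-/-, Mafk (-0.33 ± 0.0877). Among the genes of zinc handling, 3 or 4 of 6 could be tested, and the zinc importer gene Slc39a10 was the only call, falling with 5-FU in Tespa1-/- (-0.69 ± 0.0986) and lower there than in Tespa1+/+ after 5-FU (-0.43 ± 0.117).

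Glutathione reductase, Gsr, which regenerates glutathione, was at 150, 161 and 166 CPM in the libraries of Tespa1-/- LSKs after 5-FU in order of level and at 54.7 to 72.7 CPM in the other 9. Its log2 fold change was 1.14 with 5-FU in Tespa1-/- (adjusted p = 4.13e-06 with edgeR), 1.30 between genotypes after 5-FU (3.6e-06) and 1.01 ± 0.0987 for the interaction (7.46e-05). Slc7a11, the cystine importer, rose 1.61 ± 0.303 on the log2 scale with 5-FU in Tespa1-/- from 1.32 to 4.06 CPM and was higher than in Tespa1+/+ after 5-FU (1.69 ± 0.357). Of the 10 genes of glutathione synthesis and reduction, 3 rose and 1 (Glrx3, -0.20 ± 0.0600) fell with 5-FU in Tespa1-/-, and 3 were higher and none lower after 5-FU by genotype, with none higher and 1 lower in untreated LSKs. Slc3a2, the partner chain of that importer, fell with 5-FU in Tespa1+/+ (-0.51 ± 0.0776) and was lower in untreated Tespa1-/- (-0.29 ± 0.0644), and the interaction called 2 genes of the list higher, Gsr and Slc3a2.

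Glutathione transferases, which join glutathione to electrophiles, included 6 of 11 tested genes that rose and 2 that fell with 5-FU in Tespa1-/-. Mgst2, a microsomal member, rose in Tespa1-/- (1.96 ± 0.202) and Tespa1+/+ (1.62 ± 0.395), where 2 of 12 were called. Gstz1 (-0.48 ± 0.135) was the larger of the falls. After 5-FU 3 of 11 were higher in Tespa1-/-, with Mgst3 the largest (1.28 ± 0.301), and no gene of the list was called in untreated LSKs. The interaction called 1 of 12, Gstm1 (1.17 ± 0.139), whose mean was 81.4 CPM in treated Tespa1-/- and 31.0 to 38.0 CPM in the other groups.

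In the thioredoxin and peroxiredoxin system, 4 of 12 genes rose and 2 fell with 5-FU in Tespa1-/-, Prdx5 rising most (0.80 ± 0.0862) and Prdx1 falling most (-0.41 ± 0.0868). Prdx5 was also higher in Tespa1-/- after 5-FU (0.57 ± 0.0976). Txnip, whose product binds thioredoxin, went in opposite directions: it rose with 5-FU in Tespa1+/+ (81.6 to 135 CPM, 0.73 ± 0.0732) and fell in Tespa1-/- (117 to 100 CPM, -0.23), with an interaction of -0.95 ± 0.0844 (adjusted p = 2.74e-05 with edgeR). It was the 1 gene of the list called in untreated LSKs, higher in Tespa1-/- (0.52 ± 0.0593), and the 1 lower after 5-FU (-0.44 ± 0.0660).

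Of the remaining superoxide dismutases and glutathione peroxidases, Sod1, the cytosolic copper-zinc enzyme, rose with 5-FU in Tespa1-/- (0.26 ± 0.0561), and Gpx4, which reduces lipid peroxides, was at 31.2 to 32.9 CPM by group mean. Gpx3, the secreted peroxidase, gave large fitted changes that rested on widely spread libraries, from 1.19 to 46.4 CPM in untreated Tespa1-/- and from 0.413 to 24.5 CPM in treated Tespa1+/+. It was called higher with 5-FU in Tespa1+/+ (4.59 ± 1.18), higher in untreated Tespa1-/- (5.22 ± 1.22) and lower in the interaction (-6.42 ± 1.70), and with a library left out these values ran from 3.78 to 5.71, 3.83 to 6.35 and -7.55 to -5.01. By count, this list had 1 of 5 tested genes higher with 5-FU in Tespa1+/+, 1 higher and 1 lower of 6 in Tespa1-/-, 2 of 6 higher in untreated Tespa1-/-, none of 5 after 5-FU and 2 of 6 lower in the interaction.

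In heme breakdown and iron storage, 3 of 6 genes rose with 5-FU in Tespa1-/- and 3 were higher than in Tespa1+/+ after 5-FU. Blvrb, a biliverdin reductase that red cell precursors also express, was at 35.9 ± 3.14 CPM in treated Tespa1-/- and 5.38 ± 1.20, 8.88 ± 0.593 and 10.1 ± 0.971 CPM in untreated Tespa1+/+, untreated Tespa1-/- and treated Tespa1+/+. It rose with 5-FU in Tespa1-/- (2.0 ± 0.123) and in Tespa1+/+ (0.91 ± 0.234), and the interaction was 1.10 ± 0.237 (adjusted p = 0.0167 with edgeR). Fth1, the ferritin heavy chain, fell with 5-FU in Tespa1+/+ (-0.47 ± 0.0561), was lower in untreated Tespa1-/- (-0.37 ± 0.0603) and was higher in Tespa1-/- after 5-FU (0.22, adjusted p = 0.0154 with edgeR).

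In the list of NADPH supply and quinone reduction, 5 of 7 tested genes rose with 5-FU in Tespa1-/-, namely G6pdx, Idh1, Pgd and Taldo1 of sugar and isocitrate metabolism and the quinone reductase gene Nqo2, and 1 fell, Idh2 (-0.28 ± 0.0510). Pgd, of the pentose phosphate pathway, rose most (0.62 ± 0.0669), was higher in Tespa1-/- than Tespa1+/+ after 5-FU (123 against 73.6 CPM, 0.74 ± 0.0722) and was the 1 gene of the list in the interaction (0.43 ± 0.110). After 5-FU 3 of 8 were higher in Tespa1-/-, none was called in untreated LSKs, and Idh1 was the call in Tespa1+/+ (0.50 ± 0.120). Among 11 genes of ROS control in stem cells, 2 rose and 3 fell with 5-FU in Tespa1-/-, led by the transcription factor gene Foxo1 (1.01 ± 0.110) and the DNA damage kinase gene Atm (-0.36 ± 0.0648). Foxo1 was lower in untreated Tespa1-/- (-0.75 ± 0.140) and higher in the interaction (0.74 ± 0.196). Foxo3 fell with 5-FU in Tespa1+/+ (-0.31 ± 0.0766). After 5-FU the methionine sulfoxide reductase gene Msrb1 was higher (1.41 ± 0.299) and the stem cell regulator gene Prdm16 lower (-1.02 ± 0.198) in Tespa1-/-, and Prdm16 was also lower in the interaction (-1.0 ± 0.264).

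With each library left out in turn, the calls named above that held in at most 2 fits were those of Mgst2, Gpx3, Blvrb, Idh1 and Foxo3 with 5-FU in Tespa1+/+, of Cul3, Glrx3 and Gstz1 with 5-FU in Tespa1-/-, of Maff, Slc3a2, Gpx3 and Foxo1 in untreated LSKs, of Slc39a10, Mafk and Mgst3 after 5-FU, and of Gpx3, Pgd, Foxo1 and Prdm16 in the interaction. Gsr, Gstm1, Txnip and Sqstm1 kept their interaction calls in 12 of 12 fits.

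For the 3 members whose group means spanned at least 1 on the scale of log2(CPM + 1), the genes with the most similar profile over the 12 libraries were sought among 11188 genes with at least 5 CPM on average, by the root mean square difference of profiles centred on their means. Mt1 was followed most closely by Myo1d (0.202), Ampd3 (0.206) and Cdc25b (0.210), where the spread of Mt1 around its own mean was 0.890. Myo1d, for instance, was at 4.56, 6.17, 9.49 and 30.6 CPM in untreated Tespa1+/+, untreated Tespa1-/-, treated Tespa1+/+ and treated Tespa1-/-. Mt2 was nearest to Syne1 (0.369), Ctse (0.394) and Cpox (0.409), against its own spread of 0.958. Hmox1 was nearest to Anxa3 (0.186), Arid3a (0.221) and Gm12856 (0.227), against 0.551. These distances describe 12 libraries in 4 groups and carry no test.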

How the data were processed

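Total RNA of sorted LSKs was sequenced from poly-A libraries made with a strand-keeping kit, as paired ends. The authors deposited a table of 53465 genes with the raw count of reads per gene in each of 12 libraries, without normalization. The deposited FPKM values equal those counts over library total and 1 length per gene (relative spread of the implied length at most 1.45e-06 over 8529 genes). That length differs from the merged exons used here (3824 against 10008 bases for Sod2) and served as an alternative added after the data were seen. For Mt1 and Gpx1 it is 2267 and 3412 bases, longer than the whole annotated genes of 1246 and 1441 bases. The submitters' processing notes name CASAVA 1.8, HISAT2, StringTie, edgeR and GRCm38, with no roles. Groups, 3 libraries each, came from the labels.

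Counts were filtered with filterByExpr (minimum count 10), scaled with TMM and tested with edgeR 4.0.16 in R 4.3.3 by the quasi-likelihood test (glmQLFit, glmQLFTest), on the 6 libraries of each comparison and, for the interaction, on all 12. Genes were called at a Benjamini-Hochberg adjusted p below 0.05 over all genes tested, with no fold threshold. Standard errors of the log2 fold change were derived from the fitted coefficient and the F statistic of that test. The 95% intervals were built from these errors around the reported log2 fold change, and both are approximations. Replicates of a group differed by more than sampling noise (median chi-square per degree of freedom 2.08 to 5.87), and library totals of 22118154 to 28275079 set the precision of low counts. Exon lengths and positions are those of GENCODE M21 (GRCm38), in which 53360 genes of the table were found, and promoter windows are from RefSeq (GRCm38.p6). Named genes were the 10 members, Tespa1, Nfe2l2, Keap1, Bach1 and Mtf1, and in each comparison the largest rise and fall called in each of 9 pathway lists with a mean of at least 1 CPM. Marker lists (10) and context lists (4) were summed per library. Other genes named for a count were chosen after their values were seen. Members and lists were chosen with earlier results of these data known.

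As alternatives, DESeq2 1.42.0 was run, TMM was replaced by RLE or by plain library totals, and the filter was dropped or set to 10 counts in every library. The 12 libraries were also fitted jointly, the replicate number was added as a block, a fold change above 1.5 was required with adjusted or unadjusted p, and each library was left out in turn. Scripts were tested on simulated counts with the same spread in all genes. There edgeR recovered 55.2% to 81.8% of changes of 1 on the log2 scale in the 4 comparisons between groups. In the interaction it recovered 23% of them and 96% of changes of 2. Tables and plots were made with matplotlib 3.10.9, pandas 2.3.3 and NumPy 2.4.6 in Python 3.11.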

Additional observations from a re-analysis of the deposited data

Results flagged for a closer look

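The response to 5-FU differed between the genotypes for 3 of the 10 genes by the interaction term over 12 libraries, fitted with edgeR's quasi-likelihood test, where 3.02% of all 18696 genes were called higher and 1.99% lower. For Mt1 the response was larger in Tespa1-/- LSKs by 1.15 on the log2 scale, for Mt2 by 3.39 and for Gpx1 by 0.68. With each library left out in turn, the call held in 12 of 12 fits for Mt1, 3 of 12 for Mt2 and 8 of 12 for Gpx1. In all 3 genes the Tespa1-/- libraries after 5-FU were above every other library, and the share of all genes with this pattern is not given here. In those Tespa1-/- libraries neutrophil markers summed to 1051 to 1057 CPM, and the part of these markers in the difference was not tested.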

How the results depend on the processing

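Of the 797 alternative values of the members' fold changes, none reversed a called direction, and 22 values that were not called changed sign. For the 16 called results, 133 of 139 values kept the call under the other settings and 90 of 114 with 1 library left out. For the 34 results not called, 10 of 298 values gained a call under the other settings and 3 of 246 with 1 library left out. The 40 group levels moved by less than 1 SD without TMM. Counts of at most 80 per library limit Nqo1 and, outside Tespa1-/- LSKs after 5-FU, Mt2 and Hmox1, and 3 libraries per group limit the rest.

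Members called higher with 5-FU in Tespa1+/+ (1) were 2 with DESeq2, library totals, no filter, a minimum of 10 counts per library, the joint fit of all 12, the replicate block and unadjusted p with a fold above 1.5, the gain being Gclm. Those called lower (0) were 1 with DESeq2 and in the fit of all 12 libraries, and 0 to 1 with a library left out. With 5-FU in Tespa1-/-, the calls of Gpx1 and Cat as higher were lost with either fold threshold. Members called lower with 5-FU in Tespa1-/- (1) were 0 with either fold threshold and 0 to 1 with a library left out. In the interaction, 1 to 3 were called higher with a library left out, and unadjusted p with a fold above 1.5 added Hmox1.

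For pathway genes with 5-FU in Tespa1+/+, 6 higher became 2 with the replicate block and 1 to 4 with a library left out, and 5 lower became 3 with library totals, 3 with the replicate block, 1 and 0 with a fold threshold (unadjusted and adjusted p) and 2 to 3 with a library left out. In Tespa1-/-, 26 higher became 14 with either fold threshold, and 12 lower became 6 without a filter, with all 12 libraries and with the replicate block, 2 with either fold threshold and 4 to 9 with a library left out. In untreated LSKs, 3 higher became 5 with DESeq2, all 12 libraries and the unadjusted fold threshold, 1 with at least 10 counts and with the replicate block, and 1 to 2 with a library left out, and 7 lower became 12 with DESeq2, 4 with the replicate block, 4 and 2 with a fold threshold and 1 to 6 with a library left out. After 5-FU, 14 higher became 9 to 12 with a library left out, and 4 lower became 2 without a filter, 2 with the replicate block, 2 and 1 with a fold threshold and 2 to 4 with a library left out. In the interaction, 8 higher became 5 with library totals and 4 to 7 with a library left out, and 4 lower became 2 with at least 10 counts, 1 with the replicate block and 1 to 3 with a library left out. The cause of these moves was not tested.

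Replicate numbers are shared by the groups. Over 14934 genes, deviations of same-numbered libraries correlated at -0.045 to 0.0321, against -0.0471 to 0.0566 for different numbers. Same-numbered libraries were therefore not more alike across these genes. Each correlation covers all these genes at once, so it cannot decide whether the numbers pair the libraries in a part of them. That was not tested.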
